A study of Mus musculus with 8 samples.

Results

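A set of 9 genes, 8 of meiotic chromosomes and 1, Tex14, of the bridges between germ cells, were followed on 8 Affymetrix mouse arrays from embryonic stem cells in which Rif1 had been knocked down. The 9 genes are Hormad1, Sycp1, Sycp3, Syce1, Dmc1, Smc1b, Stag3, Hsf2bp and Tex14, and every probe set annotated to a single one of these symbols was taken, which gave 11 of the 45037 probe sets on the array other than controls. Dmc1 and Hsf2bp had 2 probe sets each, and the other 7 genes had 1 each. The genes were selected on the measured change between Rif1 shRNA and control arrays of the F1 line, some being higher and some lower there, so their F1 values below are a description and carry no test. The change in J1 was not part of that choice of direction and was tested. The genes were chosen with earlier results of these data known, so the J1 count is not that of an independently chosen set.

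The J1 arrays held J1 embryonic stem cells (129S4/SvJae background) collected 48 h after lipofection with a short hairpin RNA (shRNA) against Rif1 or with a control shRNA. The F1 arrays held C57BL/6xC3H embryonic stem cells at passage 16, with a stable Rif1 knockdown or with the control shRNA. Although the transfection label of the F1 control arrays is the control shRNA, their cell line label names the stable knockdown, and all cells were grown on feeder plates. Each of the 4 groups had 2 arrays, and nothing says that these were separate cultures. A p-value here rests on 1 spread shared by all 4 groups, from pairs of arrays that may differ only technically. The J1 arrays varied more than the F1 arrays (median residual SD 0.115 against 0.0657), so this shared spread is not that of J1 alone. The labels do not state how many clones the F1 line represents.

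Meiosis pairs homologous chromosomes along a protein axis and joins them through the synaptonemal complex, a zipper-like structure. Meiotic cohesin holds sister chromatids at the axis, and a meiosis-specific recombinase repairs the programmed DNA breaks from the homologue. In embryonic stem cells and other non-meiotic cells, many of these genes are known to be held down by a Polycomb complex, PRC1.6, that contains E2F6 and the MGA/MAX pair and binds E2F-type and E-box sequences, together with DNA methylation.

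The promoters of 5 genes are shown as examples of both directions in F1 and of windows with both motifs, 1 motif or neither: Hormad1, Hsf2bp and Sycp3, lower in F1 knockdown cells, and Syce1 and Sycp1, higher there. Each is the RefSeq window (GRCm38.p6) of 250 bases before and 50 bases after the transcript start, 5′ to 3′ on the strand of the gene. Capitals mark the E2F-type 6-letter motif GCGGGA, or TCCCGC on the other strand, and the E-box CACGTG, which reads the same on both strands. No match of one motif overlapped a match of the other. The windows lie at chr3:95559427-95559726 (plus strand) for Hormad1, chr17:32034459-32034758 (minus) for Hsf2bp, chr10:88459337-88459636 (plus) for Sycp3, chr7:140787805-140788104 (minus) for Syce1 and chr3:102936051-102936350 (minus) for Sycp1.
Hormad1: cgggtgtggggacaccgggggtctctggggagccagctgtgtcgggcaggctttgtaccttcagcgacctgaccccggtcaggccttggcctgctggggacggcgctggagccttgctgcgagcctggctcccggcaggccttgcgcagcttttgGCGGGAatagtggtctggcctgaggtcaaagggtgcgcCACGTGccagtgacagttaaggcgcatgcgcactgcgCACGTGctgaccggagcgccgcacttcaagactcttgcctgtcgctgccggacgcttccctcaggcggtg
Hsf2bp: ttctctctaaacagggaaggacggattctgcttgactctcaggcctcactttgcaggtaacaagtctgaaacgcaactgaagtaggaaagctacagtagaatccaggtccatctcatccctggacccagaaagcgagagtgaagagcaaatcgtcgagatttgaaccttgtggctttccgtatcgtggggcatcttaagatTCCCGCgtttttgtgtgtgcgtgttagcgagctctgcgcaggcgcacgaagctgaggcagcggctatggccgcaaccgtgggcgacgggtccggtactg
Sycp3: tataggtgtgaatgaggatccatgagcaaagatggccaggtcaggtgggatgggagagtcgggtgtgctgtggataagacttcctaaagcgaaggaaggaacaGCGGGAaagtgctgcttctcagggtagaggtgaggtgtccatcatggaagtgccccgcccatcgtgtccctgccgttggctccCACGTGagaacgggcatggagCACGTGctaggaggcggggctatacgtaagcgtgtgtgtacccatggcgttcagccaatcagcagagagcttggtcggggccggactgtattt
Syce1: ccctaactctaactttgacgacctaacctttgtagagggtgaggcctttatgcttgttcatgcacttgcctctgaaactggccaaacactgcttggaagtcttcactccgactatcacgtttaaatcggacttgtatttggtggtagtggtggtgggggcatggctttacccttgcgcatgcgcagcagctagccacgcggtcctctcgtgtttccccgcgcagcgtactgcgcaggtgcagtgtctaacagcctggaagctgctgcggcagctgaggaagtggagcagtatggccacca
Sycp1: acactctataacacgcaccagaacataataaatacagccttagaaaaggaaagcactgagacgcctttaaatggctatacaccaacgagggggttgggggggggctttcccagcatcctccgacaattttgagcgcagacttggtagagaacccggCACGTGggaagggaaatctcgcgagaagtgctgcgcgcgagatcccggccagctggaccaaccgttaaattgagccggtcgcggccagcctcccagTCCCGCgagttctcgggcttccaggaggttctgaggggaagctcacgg

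All 9 genes had a window in the RefSeq table. The E2F-type motif was present in 8 of the 9 windows (88.9%), in all except that of Syce1. It was present in 20% of the windows of all 27025 genes, in 33.4% of those of 11779 genes measured here, and in 39.1% of the 7180 windows whose number of CpG dinucleotides lay in the range of the 9 genes, 14 to 30. The E-box was present in 4 of the 9 windows (44.4%), those of Hormad1, Sycp1, Sycp3 and Stag3, against 7.24% of all windows and 11.3% of those in the same CpG range. These 4 windows held both motifs, as did 4.19% of all windows in that range. Hormad1 and Sycp3 each held 2 E-boxes, at 57 and 20 bases and at 64 and 43 bases before the start (first base of the match). Sycp1, which was higher in F1 knockdown cells, and Hormad1, which was lower there, carried the same 2 kinds of match, while Syce1 carried neither. Of 30 windows of the wider list of meiosis genes, 17 held the E2F-type motif (56.7%), 5 the E-box (16.7%) and 3 both (10%). These shares are descriptions of letters in a window and no test was made of them.

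**Figure D1:**
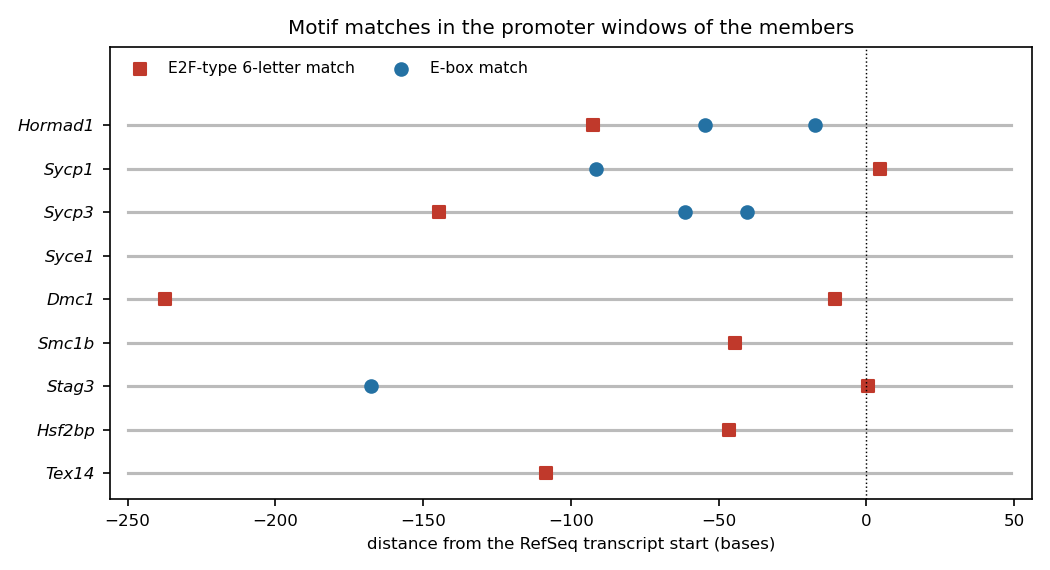
Matches of the E2F-type motif (squares) and the E-box (circles) in the promoter window of each of the 9 genes, drawn against the distance in bases from the RefSeq transcript start (dotted line). Of the 9 windows, 8 hold at least 1 E2F-type match, 4 also hold an E-box, and the Syce1 window holds neither.

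Whole-series facts that bear on these genes were as follows. Rif1 at its brightest probe set was left at 47.2% of control in J1 and 29.9% in F1. Of 31605 probe sets kept after a filter on dim signals, 3.18% passed the test in J1 and 15.0% in F1. All 11 probe sets of the 9 genes passed that filter. Markers of pluripotent cells were bright, with Pou5f1 above the 98th percentile of every array. Of 12 such markers, Fbxo15 and Tdgf1 rose in F1 and Dppa4, Esrrb, Sox2, Utf1 and Zfp42 fell, while in J1 Fbxo15 rose and Sall4 fell. Of 25 germ cell markers on the array, 17 passed the filter and 8 did not, Piwil1 and Tnp1 among the latter. Over the 8 arrays, Ddx4 had signals of 368 to 726, Mael 145 to 1114 and Sohlh2 232 to 874. Other germ cell markers that passed the filter were dim, among them Prm1 at 48 to 72 and Zp2 at 38 to 60. These lay near or below the array medians of 61 to 69. Spo11, of the wider list of meiosis genes, also fell under the filter. Feeder fibroblast markers rose with the F1 knockdown in 21 of 24 genes, and their summed deposited signal was 42738 and 41560 in F1 Rif1 shRNA arrays, against 21150 and 20778 in F1 controls. In J1, 6 of the 24 fell and the sums were 14150 and 14451 in Rif1 shRNA arrays, against 16694 and 15527 in controls. The ratio of 3′ to 5′ actin signal was 2.18 and 2.17 in J1 Rif1 shRNA arrays, against 2.71 and 2.61 in J1 controls, and 1.33 to 1.41 on all F1 arrays. The part of feeder RNA, of the pluripotency markers and, in J1, of this ratio in the values below was not tested.

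The first comparison asks what had happened to the 9 genes 48 h after transfection of J1 cells. Sycp1 and Sycp3 rose, by 1.72-fold and 1.36-fold, and none of the other probe sets passed the test. That is 2 of 11 probe sets (18.2%), both higher, against 1.44% of all kept probe sets higher and 1.74% lower (limma, adjusted p under 0.05, two-sided). The unadjusted p was under 0.05 at 3 of the 11, against 17.1% of all kept probe sets. The median log2 fold change of the 11 probe sets was 0.19, beside 0.00 over all kept probe sets. In bulk RNA, fewer cells of a kind and less RNA per cell cannot be told apart. All fold changes were computed from log2(signal + 18) after quantile normalization, and the added 18 shrinks the change of dim probe sets.

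In stable F1 knockdown cells most of these genes were lower. Among the 11 probe sets, 8 were lower and 2 higher past the same threshold and 1, that of Stag3, was not past it; 6.78% of all kept probe sets were lower and 8.26% higher, 15.0% in all. Since the F1 values chose the genes, nothing is read from this count. The median log2 fold change was -0.71, beside -0.03 over all kept probe sets. By gene, Hormad1, Sycp3, Dmc1, Smc1b, Hsf2bp and Tex14 were lower and Syce1 and Sycp1 were higher.

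The axis proteins come first. Hormad1 encodes a HORMA-domain protein that coats the unsynapsed axis and is needed for break formation and for surveillance of pairing. Its deposited signal was 190 and 223 in J1 Rif1 shRNA arrays, against 196 and 215 in J1 controls, and the groups overlapped. Its log2 fold change was 0.00, with a 95% interval of -0.22 to 0.23 (SE 0.10, limma adjusted p = 0.991). In F1 it was 89.5 and 88.4 in Rif1 shRNA arrays, against 393 and 397 in controls. Both knockdown arrays lay far below both controls, with a log2 fold change of -1.71 (SE 0.10), 3.27-fold lower. The F1 controls were the brightest group on the normalized scale and on the deposited scale, and the F1 knockdown was the dimmest on both.

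Sycp3 encodes a component of the axial and lateral elements of the synaptonemal complex. Its signal was 812 and 864 in J1 Rif1 shRNA arrays, against 652 and 580 in J1 controls. Both knockdown arrays lay above both controls, with a log2 fold change of 0.45 (SE 0.09, limma adjusted p = 0.0220). This call was lost without J1 control replicate 2 (adjusted p = 0.149) and without J1 Rif1 shRNA replicate 2 (0.0697), in a fit of the 4 J1 arrays alone (0.0583) and with no intensity trend (0.0785); over all alternatives the adjusted p ran from 0.0111 to 0.149. In F1 the direction was the opposite, with 336 and 317 in Rif1 shRNA arrays, against 652 and 589 in controls. The groups did not overlap and the log2 fold change was -0.87 (SE 0.09), 1.83-fold lower. Sycp3 was thus brightest in the J1 knockdown and dimmest in the F1 knockdown, and the order of the 2 control groups between these depended on the scale.

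The zipper itself is built from Sycp1, the transverse filament protein that bridges the paired axes, and from central element proteins such as Syce1. Sycp1 had a signal of 79.1 and 72.5 in J1 Rif1 shRNA arrays, against 38.2 and 39.8 in J1 controls. Both knockdown arrays were above both controls with an estimated log2 fold change of 0.78 (SE 0.12; adjusted p = 0.00768 with limma). The J1 control signals lay below the array medians of 61.0 and 66.9, so the size of the change depended on the offset added before the logarithm, at 1.05 with no offset and 0.45 with one 4 times larger, past the threshold in both. The call was lost without J1 control replicate 1 (adjusted p = 0.0534), and the adjusted p ran from 0.00344 to 0.0534 over all alternatives. In F1, where the gene was brighter, it had 378 and 351 in Rif1 shRNA arrays, against 202 and 228 in controls, again with no overlap. The log2 fold change there was 0.56 (SE 0.12), 1.48-fold higher. Over 17 alternatives this F1 log2 fold change ran from 0.46 to 0.71, a description only, since the F1 values chose the gene. Its 4 groups did not overlap on the normalized scale, in the order F1 Rif1 shRNA, F1 control, J1 Rif1 shRNA and J1 control.

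Syce1 behaved differently from Sycp1 in J1, with 285 and 246 in Rif1 shRNA arrays, against 266 and 231 in controls. These overlapped, and the log2 fold change of 0.10 had a 95% interval of -0.13 to 0.32 (SE 0.10, limma adjusted p = 0.683). In F1 it had 1527 and 1425 in Rif1 shRNA arrays, against 357 and 358 in controls. This was the highest F1 estimate among the 11 probe sets, a log2 fold change of 1.87 (SE 0.10), 3.65-fold higher. The F1 knockdown arrays were the brightest on either scale, while the other 3 groups lay at deposited means of 248 to 358.

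**Figure D2:**
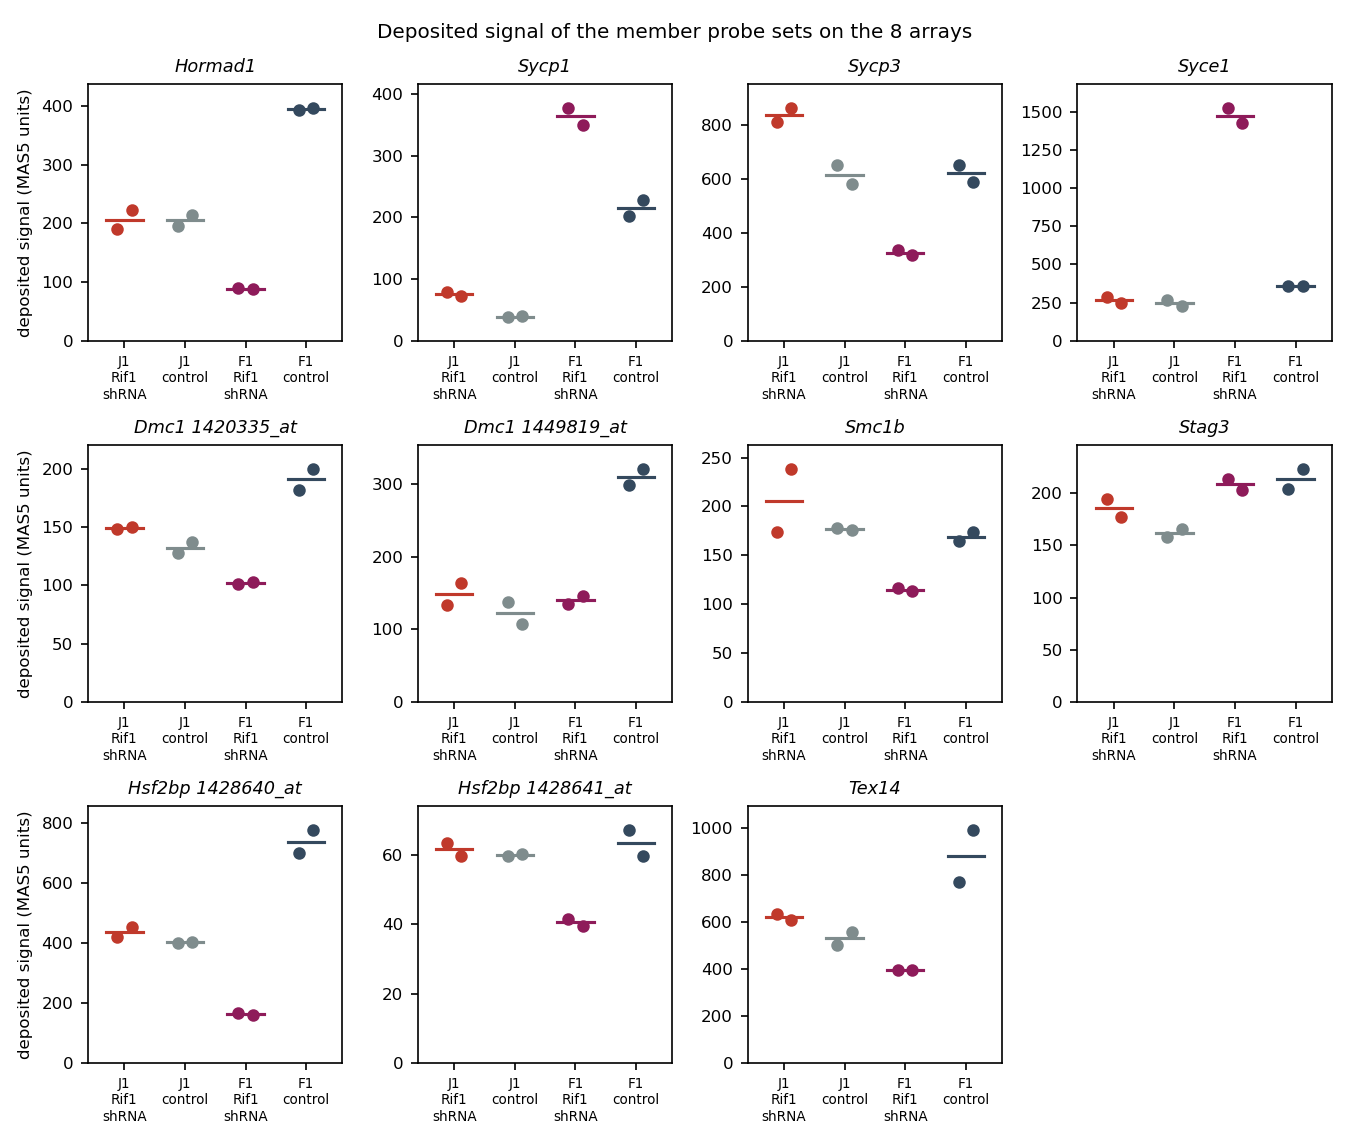
Deposited MAS5 signal (vertical axes, linear, starting at 0) of each of the 11 probe sets on the 8 arrays. Points are arrays and lines are the means of the 2 arrays of a group; Hormad1, Hsf2bp and Tex14 are low and Syce1 is high in F1 Rif1 shRNA arrays, and Sycp1 is higher in Rif1 shRNA arrays than in controls in both settings.

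By gene, the cohesin subunits had the smallest changes in F1. Smc1b encodes the meiotic partner of Smc3, and Stag3 the meiotic member of the stromalin family. Smc1b had 173 and 239 in J1 Rif1 shRNA arrays, against 178 and 176 in J1 controls. The knockdown arrays straddled the controls, with a log2 fold change of 0.20 (SE 0.13, limma adjusted p = 0.491). Its sign rested on single arrays: it was -0.02 without J1 Rif1 shRNA replicate 2 and 0.43 without replicate 1, where it passed (adjusted p = 0.0388). In F1 it had 116 and 113 in Rif1 shRNA arrays, against 164 and 174 in controls, a log2 fold change of -0.45 (SE 0.13), 1.36-fold lower. This F1 difference fell short of the threshold under several alternatives, and no call is read from it. Among these were an offset 4 times larger, no intensity trend and a replicate block. Over 17 alternatives its log2 fold change ran from -0.53 to -0.33, a description only, since the F1 values chose the genes.

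Stag3 had 195 and 177 in J1 Rif1 shRNA arrays, against 158 and 165 in J1 controls. The groups did not overlap, but the log2 fold change of 0.19 was not past the threshold (SE 0.10, limma adjusted p = 0.390). In F1 it had 214 and 203 in Rif1 shRNA arrays, against 204 and 223 in controls. These overlapped on the deposited scale and were just apart after normalization, with a log2 fold change of -0.08 and a 95% interval of -0.31 to 0.15.

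The mitotic counterparts of these subunits were measured on the same arrays. Smc1a, the mitotic form of Smc1b, had log2 fold changes of 0.01 in J1 and 0.05 in F1 (limma adjusted p = 0.963 and 0.631). Stag2 had -0.06 in J1 and 0.00 in F1 (limma adjusted p = 0.777 and 0.997). Stag1 fell in J1, with 599 and 564 in Rif1 shRNA arrays, against 704 and 756 in controls (log2 fold change -0.30, SE 0.07, limma adjusted p = 0.0399), although only 1 of its 6 tested probe sets passed there. In F1 it had 0.15 (limma adjusted p = 0.178). Of 16 mitotic counterparts, including cohesin loaders, cohesin release factors and cytokinesis genes, 0 rose and 1 fell in J1, and 0 rose and 2 fell in F1, Wapl and Racgap1. With limma, 1.86% of all genes rose and 2.17% fell in J1, and 10.6% rose and 8.16% fell in F1.

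The strand exchange genes were lower in F1. Dmc1 encodes the meiosis-specific recombinase, and Hsf2bp, also called Meilb2, encodes a BRCA2-binding protein that brings recombinases to meiotic breaks. At the first Dmc1 probe set (1420335_at) the signal was 149 and 151 in J1 Rif1 shRNA arrays, against 128 and 137 in J1 controls. At the second (1449819_at) it was 134 and 164, against 138 and 107. The arrays were apart at the first and overlapped at the second, and neither passed, with log2 fold changes of 0.16 and 0.27 (limma adjusted p = 0.485 and 0.311). In F1 the first had 101 and 103 in Rif1 shRNA arrays, against 182 and 200 in controls, and the second had 135 and 146, against 299 and 322. Both probe sets were lower without overlap, with log2 fold changes of -0.71 (SE 0.11) and -0.94 (SE 0.13).

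Hsf2bp had the lowest F1 estimate of the 11 probe sets. Its brighter probe set (1428640_at) had 165 and 160 in F1 Rif1 shRNA arrays, against 699 and 778 in F1 controls. The log2 fold change was -1.90 (SE 0.08), 3.72-fold lower, and the knockdown arrays were the dimmest of all 4 groups on both scales. In J1 it had 420 and 452 in Rif1 shRNA arrays, against 401 and 402 in controls. Those arrays were apart but close, with a log2 fold change of 0.14 and a 95% interval of -0.05 to 0.32 (SE 0.08, limma adjusted p = 0.446). The second probe set (1428641_at) was dim, between the 34.7th and 50.4th percentile of its arrays. It had 41.7 and 39.5 in F1 Rif1 shRNA arrays, against 67.4 and 59.7 in controls, a log2 fold change of -0.43 (SE 0.12). Over 16 alternatives this log2 fold change ran from -0.585 to -0.245. The difference fell short of the threshold in some of them, such as with a replicate block, and no call is read from it. In J1 the second probe set had 63.7 and 59.8 in Rif1 shRNA arrays, against 59.9 and 60.4 in controls (log2 fold change -0.01, limma adjusted p = 0.971). Both probe sets were lower in F1, to a different extent, and neither passed in J1.

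Tex14 encodes a protein of the stable intercellular bridges that join germ cells. Its signal was 394 and 395 in F1 Rif1 shRNA arrays, against 769 and 994 in F1 controls. The controls differed by more than the knockdown arrays did and the groups were far apart, with a log2 fold change of -1.11 (SE 0.10), 2.16-fold lower. In J1 it had 635 and 610 in Rif1 shRNA arrays, against 504 and 557 in controls. Both knockdown arrays were higher there, and the log2 fold change of 0.25 was short of the threshold (SE 0.10, 95% interval 0.02 to 0.48, limma adjusted p = 0.241).

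**Figure D3:**
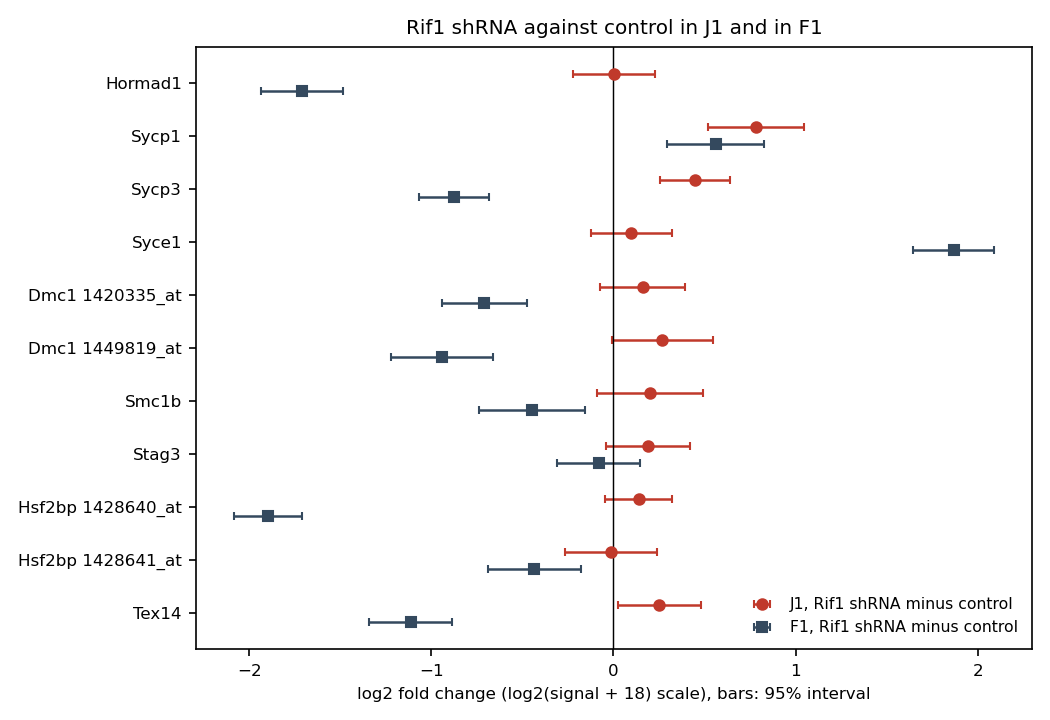
Log2 fold change of Rif1 shRNA over control at each of the 11 probe sets in J1 (circles) and F1 (squares), with 95% intervals from the limma fit. The J1 estimates lie between -0.01 and 0.78, while the F1 estimates run from -1.90 for Hsf2bp to 1.87 for Syce1.

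The arrays of Rif1 shRNA and control did not overlap at 6 of the 11 probe sets in J1, all 6 with the knockdown higher, against 18.8% of all kept probe sets with the knockdown higher and 39.7% in either direction. In F1 they did not overlap at any of the 11 on the normalized scale, 2 with the knockdown higher and 9 lower, against 28.4% of all kept probe sets higher, 35.5% lower and 63.9% in either direction; since the F1 values chose the genes, nothing is read from this. The F1 knockdown was the dimmest of the 4 groups at 9 of the 11 probe sets after normalization, and at 7 of them on the deposited scale as well; the exceptions with normalization only were Stag3 and the second Dmc1 probe set. J1 and F1 arrays differ in overall scale, with trimmed means of 192 to 196 in J1 and 300 to 308 in F1, so an order of J1 against F1 levels is given only where both scales gave it.

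The wider machinery of meiotic chromosomes was read from a list of other axis, synaptonemal, break formation, strand exchange, crossover and telomere attachment genes, of which 36 were measured. In J1, Sycp2 and Meioc rose and 0 fell, with a median log2 fold change of 0.04, beside 0.01 over all genes. Sycp2, the axial partner of Sycp3, had 38.9 and 42.3 in J1 Rif1 shRNA arrays, against 22.7 and 22.6 in controls (log2 fold change 0.54, SE 0.11, limma adjusted p = 0.0242). All 4 of these arrays had it under their 40th percentile, at the 12th to 31.8th, so it passed the filter on dim signals through F1 arrays only. Meioc, which prolongs the meiotic programme, had 378 and 396, against 267 and 308 (log2 fold change 0.45, SE 0.10, limma adjusted p = 0.0444). This J1 count was 0 in a fit of the 4 J1 arrays alone and 4 without J1 Rif1 shRNA replicate 1, 3 of them higher.

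In F1, 2 of the 36 rose and 8 fell, with a median of -0.10, beside -0.02 over all genes, of which 10.6% rose and 8.16% fell. The rises were of Tex12, a central element gene, with 63.2 and 56.7 in Rif1 shRNA arrays, against 31.5 and 32.2 in controls (log2 fold change 0.58, SE 0.12, limma adjusted p = 0.00779), and of Sycp2 (0.41, limma adjusted p = 0.0258). Each of these Tex12 signals lay below the F1 array medians of 65.7 to 67.5. With the filter at the 60th percentile, 28 genes of the list were measured, of which 0 rose and 9 fell in F1. The largest falls on this list were those of H2ax, Syce2 and Rec114. H2ax, the histone variant phosphorylated at DNA breaks, had 584 and 571 in Rif1 shRNA arrays, against 1602 and 1678 in controls (log2 fold change -1.50, SE 0.06, limma adjusted p = 2.09e-07). Syce2, another central element gene, had 1620 and 1506, against 2998 and 2951 (log2 fold change -0.98, SE 0.06, limma adjusted p = 1.58e-06). Rec114, a partner of the break-forming machinery, had 107 and 107, against 211 and 219 (log2 fold change -0.79, SE 0.13, limma adjusted p = 0.00172). The F1 count of 10 on this list was 13 with normalization within each setting and 16 with only the 4 F1 arrays. It was lower than 10 when any single F1 array was left out. Stra8, which starts the meiotic programme in germ cells, had -0.14 in F1 and 0.20 in J1 (limma adjusted p = 0.433 and 0.338).

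**Figure D4:**
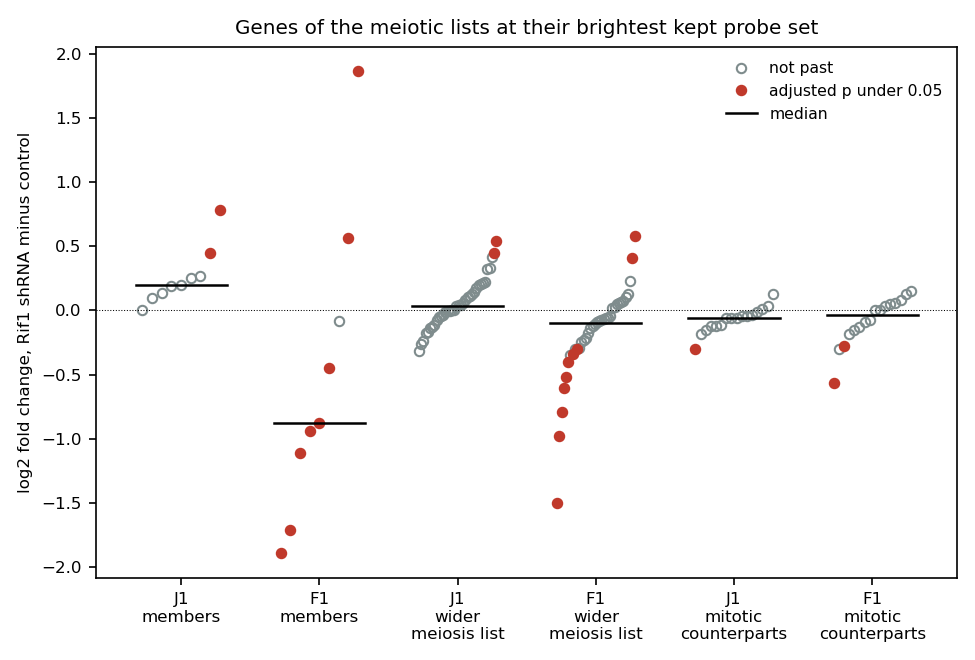
Log2 fold change of each gene at its brightest kept probe set for the 9 genes, 36 genes of the wider meiosis list and 16 mitotic counterparts, in J1 and in F1. Filled points had an adjusted p under 0.05 and bars are medians. The 9 genes were chosen on their F1 change, so their F1 fill and F1 median carry no test. In F1 these 9 genes spread from -1.90 to 1.87, with a median of -0.87, and the wider list has a median of -0.10.

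Genes of the PRC1.6 complex and of the silencing machinery were read from a list of 22. In J1, 0 rose and 0 fell with limma at their brightest probe set, and 6 of the 22 had an unadjusted p under 0.05, against 19.8% of all genes. Dnmt3a had 1 of its 5 probe sets past the threshold in J1, but not its brightest (log2 fold change 0.34, limma adjusted p = 0.0571). In F1, 4 rose (E2f6, Hdac2, Rnf2 and Yaf2) and 5 fell (Dnmt3b, L3mbtl2, Mga, Tfdp2 and Uhrf1), against 10.6% of all genes that rose and 8.16% that fell. E2f6 had 743 and 771 in F1 Rif1 shRNA arrays, against 516 and 514 in controls (log2 fold change 0.47, SE 0.08, limma adjusted p = 0.00164), with 1 of its 2 probe sets past the threshold. Mga had 447 and 489, against 656 and 704 (log2 fold change -0.55, SE 0.08, limma adjusted p = 0.00127), with 1 of its 4 past it. Rnf2 had 1 of its 5 probe sets past it (limma adjusted p = 0.0478 at the brightest), Tfdp2 2 of 4 and Hdac2 2 of 3. Both probe sets of Yaf2, of Dnmt3b and of Uhrf1 were past it. L3mbtl2, with 1 probe set, was near the threshold (limma adjusted p = 0.0495). On a list of 17 measured germ cell markers, Dazl, Mael and Sohlh2 rose in both settings. Tfap2c fell in J1, and Piwil4, Prdm1, Prdm14, Tfap2c and Ybx2 fell in F1. Of all genes, 1.86% rose and 2.17% fell in J1, and 10.6% rose and 8.16% fell in F1.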

How the data were processed

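Each deposited value is a MAS5 signal intensity per the submitters' processing notes, on a linear scale; the MAS5 version and scaling are not given in the sources used here. Of 45101 probe sets, 64 controls were dropped. The offset of 18, the 10th percentile of the values, was added before log2 and quantile normalization over the 8 arrays. A probe set was kept if at least 2 arrays had it above their 40th percentile, which left 31605. The number of arrays limits the precision.

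The limma package (version 3.58.1, R 4.3.3) fitted a mean per group over the 8 arrays, with eBayes, an intensity trend and 4 residual and 6.88 prior degrees of freedom, and p-values were adjusted by Benjamini-Hochberg over all kept probe sets. The fit was tested on simulated data. The median residual SD was 0.115 in J1 and 0.0657 in F1, although 1 spread was fitted for both. Python 3.11.15 with matplotlib 3.10.9 drew the figures.

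Gene symbols came from the platform annotation; 34945 probe sets had 1 symbol, 932 several and 9160 none here. List genes were taken at their brightest kept probe set, and promoters at the first window the RefSeq table lists. The 9 genes, the lists and the motifs were chosen with earlier results of these data known. The text names every probe set of the 9 genes, Rif1, the mitotic paralogs Smc1a, Stag1 and Stag2, and in each setting the 3 largest rises and falls of the wider list that passed with no overlap of arrays. Stra8, the markers and the silencing genes were chosen after their values were seen. Likeness between genes over arrays is not given, because the 8 arrays form 4 separate groups.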

Additional observations from a re-analysis of the deposited data

Results flagged for a closer look

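At 5 of the 11 probe sets every Rif1 shRNA array lay above both controls in J1 and below both in F1, and the difference between the settings was not tested, since the F1 values chose the genes. The same pattern held at 6.23% of all kept probe sets. The log2 fold changes in F1 were -0.875 for Sycp3, -0.71 for the first Dmc1 probe set, -0.081 for Stag3, -1.90 for the brighter Hsf2bp probe set and -1.11 for Tex14. In J1 they were 0.45, 0.16, 0.19, 0.14 and 0.25 in the same order, and of these only Sycp3 passed its own test. The Stag3 arrays of F1 overlapped on the deposited scale.

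For 5 of 9 other named genes the F1 effect minus the J1 effect passed in limma, as it did at 8.33% of all kept probe sets. Of the 9, 6 were named for their change in J1, in F1 or in both, so they were not chosen independently of it. The difference was -1.26 for H2ax (adjusted p = 2.89e-05), -0.95 for Syce2 (adjusted p = 8.43e-05), -0.96 for Rec114 (adjusted p = 0.00793), -0.62 for Meioc (adjusted p = 0.0247) and 0.45 for Stag1 (adjusted p = 0.0144).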

How the results depend on the processing

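The count of probe sets of the 9 genes past the threshold in J1 was 2. It was 1 with only the 4 J1 arrays, 1 with no intensity trend and 1 with the replicate block, and ran from 1 to 3 when each array was left out; Sycp3 was the call lost in the first 3 (adjusted p = 0.0565 with the block). In F1 the count of 10 was 8 with the block and lower still without some single F1 arrays. Nothing is read from this count, since the F1 values chose the genes. On the wider list the J1 count of 2 was 1 with no offset, no filter, the filter at the 60th percentile, values as deposited, normalization within each setting or no intensity trend, 0 with only the 4 J1 arrays, 0 with the replicate block, and 0 to 4 without single arrays. The F1 count of 10 was 16 with only the 4 F1 arrays and 6 to 12 without single arrays. The cause of these changes was not tested.

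Same-numbered arrays deviated oppositely in J1 (r = -0.339) and together in F1 (r = 0.194) over all kept probe sets. The labels do not say that the numbers pair the samples. With the J1 controls crossed, a block chosen after seeing the data, 2 probe sets of the 9 genes and 4 genes of the wider list passed in J1.

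Fold changes near 0 in J1 changed sign without single arrays: they ran from -0.103 to 0.11 for Hormad1, from -0.018 to 0.216 for Syce1, from -0.024 to 0.433 for Smc1b and from -0.115 to 0.088 for the dim Hsf2bp probe set, which had 0.029 with values as deposited. None of the F1 fold changes of the 11 probe sets changed sign under any alternative. The F1 values chose the genes, so nothing is read from this. The count over all probe sets in J1, 1005, was 254 with only the 4 J1 arrays and 227 without J1 control replicate 2. In F1 it was 4753, or 15.0% of those kept, 8140 with only the 4 F1 arrays and 1842 to 2629 without single F1 arrays. Dim signal limits Sycp1 and Sycp2 in J1, Tex12 in F1 and the dim Hsf2bp probe set.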
